A study of Mus musculus with 15 samples.

Results

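A set of 10 genes that mark fat cells was followed across 15 skeletal muscle RNA samples labelled as from male mice aged 2 months. They were Adipoq, Lep, Retn, Cfd, Fabp4, Plin1, Cidec, Lipe, Pck1 and Ucp1. They were picked by gene name as an adipocyte list, with Ucp1 included as a sign of brown fat, and are 10 of the 55536 genes listed. The 5 control samples were labelled wild type. One mutant group of 5 was labelled as lacking the growth factor receptor gene Pdgfrb in cells that express myogenin, a transcription factor of differentiating muscle cells (knockout). The other 5 mutant samples were labelled as having D489V, a constitutively active form of that receptor, again in myogenin-expressing cells. The muscle taken, the strain, the litter and any batch are not given in the sources used here, nor is it said that each sample came from a separate animal. The p-values therefore measure the spread between these samples.

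White adipocytes store triglyceride in 1 large droplet and release hormones, while brown adipocytes burn fuel for heat through the mitochondrial uncoupling protein Ucp1. Fat cells lie between muscle fibres and in the fat pads around a muscle, so a bulk sample of muscle reads them together with the fibres. In such RNA, fewer fat cells and less of a transcript per fat cell cannot be told apart. The transcription factors Pparg and C/EBP alpha (Cebpa) switch on most of the white fat programme.

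Several libraries stood apart from the rest of their group. Knockout 3, labelled male, held 3165 normalized counts of Xist, the RNA of the inactive X chromosome, against at most 101 in any other sample. In D489V 3 the summed level of 8 skin markers was 3629 against 60 to 190 in the other 14 samples, and that of 10 Schwann cell and nerve markers was 50937 against 6456 to 15492. The summed level of 10 lymphocyte markers was 1823 to 7111 in control 5 and knockout 3, 4 and 5 and 102 to 412 in the others. Pdgfrb itself was read at 1673 to 1848 in controls, while the knockout range was 958 to 1628 and the D489V range 820 to 1062. Summed over all genes, a sample held 29815559 to 36489777 normalized counts.

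Where the genes start in the genome is shown for 4 of them, to let a reader compare the sequence ahead of genes that moved together with that of Lep, whose change did not pass. The sequences are from RefSeq on GRCm38.p6, lie upstream of the start site outside exons, run 5′ to 3′ on the gene's own strand, and are in lower case. Capitals mark a match to TTGCNNAA, an 8-base form of the C/EBP motif. Adipoq is shown at chr16:23146286-23146535 (plus strand), Plin1 at chr7:79732904-79733026 (minus strand), Lep at chr6:29059971-29060219 (plus strand) and the second start of Cidec at chr6:113434765-113435014 (minus strand).
Adipoq: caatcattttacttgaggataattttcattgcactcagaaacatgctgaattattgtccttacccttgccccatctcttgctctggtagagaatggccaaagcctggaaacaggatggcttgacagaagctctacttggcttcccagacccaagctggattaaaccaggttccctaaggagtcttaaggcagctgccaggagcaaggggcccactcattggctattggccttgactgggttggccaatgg
Plin1: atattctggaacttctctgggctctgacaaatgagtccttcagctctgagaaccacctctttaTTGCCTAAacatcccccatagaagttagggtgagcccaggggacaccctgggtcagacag
Lep: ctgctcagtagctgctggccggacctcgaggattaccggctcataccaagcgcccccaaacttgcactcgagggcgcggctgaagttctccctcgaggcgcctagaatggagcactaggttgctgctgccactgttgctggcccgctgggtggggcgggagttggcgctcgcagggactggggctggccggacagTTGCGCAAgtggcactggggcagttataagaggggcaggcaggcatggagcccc
Cidec: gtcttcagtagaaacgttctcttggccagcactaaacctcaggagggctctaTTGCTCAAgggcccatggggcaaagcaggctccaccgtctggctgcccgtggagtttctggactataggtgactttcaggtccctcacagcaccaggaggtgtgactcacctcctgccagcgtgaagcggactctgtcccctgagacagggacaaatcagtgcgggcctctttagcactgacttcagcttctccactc
Of the 10 genes, 9 had an entry, with 11 start sites in all. Read on both strands of the 250 bases ahead of each start, the motif occurred in 3 of the 9 genes, Plin1, Lep and Cidec. It occurred in 9.56% of 32851 promoter windows of the same length. The first count is of genes with a match ahead of any start, and the share is of single windows. Plin1 had matches at 187 to 180 and at 58 to 51 bases before its start, and only the first lies in the stretch shown. The match in Lep, at 55 to 48 bases before the start, reads the same on both strands and so counts once. The match ahead of the second Cidec start lies at 198 to 191 bases, and the first Cidec start, not shown, had 0 matches. The genes with a match are all among the 4 shown. Of those shown Adipoq had 0 matches, as had Retn, Cfd, Lipe, Pck1 and Ucp1, which are not shown. A direct repeat of the kind that Pparg binds, 2 copies of AGGNCA set 1 base apart, was found ahead of none of the 9 and in 0.338% of windows. A match is a description of letters and not of a bound site.

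**Figure D1:**
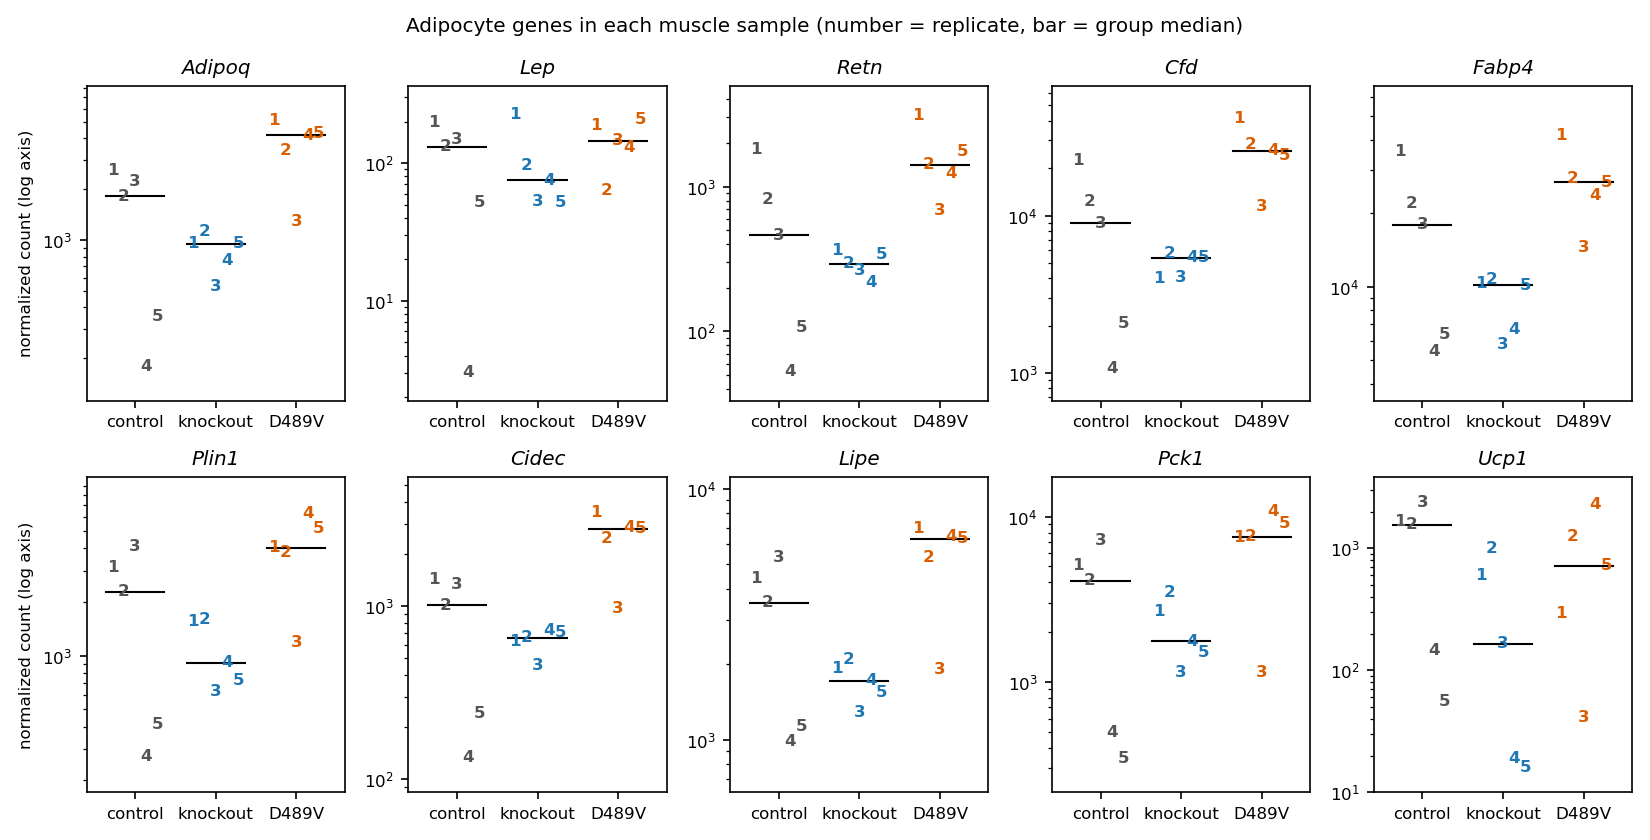
Normalized counts of the 10 adipocyte genes in each of the 15 samples, on log axes, with each sample drawn as its replicate number and bars for group medians. Controls 1, 2 and 3 lie above controls 4 and 5 for every gene, and D489V 3 is the lowest of its group for every gene except Lep.

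The first genes are those whose products fat cells secrete. Adipoq (ENSMUSG00000022878, chromosome 16, 23146536 to 23158028, plus strand, GRCm38) encodes adiponectin, a hormone made almost only by adipocytes. Its normalized counts, which are read counts that the authors scaled between samples, were 2580, 1824, 2214, 179 and 351 in controls, 950, 1118, 535, 760 and 955 in knockout, and 5106, 3414, 1294, 4177 and 4290 in D489V samples. Every knockout sample lay below every D489V sample, while the controls ran from below the knockout samples to within the D489V range. The group means were 1429.6 ± 1098, 864 ± 223 and 3656 ± 1450.3 (SD, n = 5), and the D489V mean was 4.23 times that of knockout. Changes are differences of group means of log2(value + 1), tested with limma, and a gene is called, or said to rise or fall, at a p under 0.05 adjusted over all genes tested. For Adipoq the log2 change in knockout against D489V was -1.99 (standard error, SE, 0.33, limma adjusted p 0.004).

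Cfd (ENSMUSG00000061780, chromosome 10, 79890853 to 79892655, plus strand) encodes adipsin, a serine protease of the complement system. It held 22480, 12189, 8935, 1064 and 2060 in controls, 4002, 5778, 4065, 5438 and 5399 in knockout, and 41530, 28311, 11454, 25730 and 24127 in D489V samples. The knockout samples were close to each other and all below the lowest D489V sample. Its change in knockout against D489V was -2.31 (SE 0.27, limma adjusted p 0.00105). Retn (ENSMUSG00000012705, chromosome 8, 3655770 to 3660110, plus strand) encodes resistin, a fat-secreted hormone in mice. It held 1795, 817, 462, 53 and 107 in controls, 364, 292, 264, 219 and 338 in knockout, and 3090, 1417, 682, 1230 and 1745 in D489V samples. Again no knockout sample reached any D489V sample, and the change was -2.31 (SE 0.31, limma adjusted p 0.0021).

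Lep (ENSMUSG00000059201, chromosome 6, 29060220 to 29073877, plus strand) encodes leptin, the hormone through which white fat reports its stores. It held 197, 132, 148, 3 and 52 in controls, 227, 96, 53, 75 and 52 in knockout, and 189, 63, 145, 130 and 206 in D489V samples. Knockout 1 had the highest Lep of all 15 samples, and the groups overlapped in each comparison. The change in knockout against D489V was -0.66 (SE 0.41, limma adjusted p 0.254).

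The next genes handle fatty acids and coat the lipid droplet. Fabp4 (ENSMUSG00000062515, chromosome 3, 10204088 to 10208576, minus strand) encodes the fatty acid carrier of the adipocyte cytosol, which capillary endothelium also makes. It held 35760, 21915, 17949, 5430 and 6368 in controls, 10273, 10685, 5803, 6648 and 10133 in knockout, and 41635, 27917, 14460, 23720 and 26768 in D489V samples. The knockout samples were all below the D489V samples, by -1.59 on the log2 scale (SE 0.26, limma adjusted p 0.00392). Controls 4 and 5 held 30.3 and 18.1 Fabp4 counts per Adipoq count, against 5.68 to 13.9 in the other 13 samples.

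Plin1 (ENSMUSG00000030546, chromosome 7, 79720218 to 79732903, minus strand) encodes perilipin 1, which guards the droplet surface against lipases. It held 3129, 2289, 4087, 273 and 412 in controls, 1554, 1594, 629, 910 and 726 in knockout, and 4020, 3807, 1179, 6249 and 5142 in D489V samples. The groups overlapped through D489V 3 alone, which lay below knockout 1 and 2. The change in knockout against D489V was -1.83 (SE 0.41, limma adjusted p 0.0131), and it was not called when all 15 samples shared 1 estimate of the spread (adjusted p 0.0701, with 9.46e-04 to 0.0701 over all settings tried). Cidec (ENSMUSG00000030278, chromosome 6, 113424634 to 113435760, minus strand) encodes a protein that fuses small droplets into large ones. It held 1417, 1010, 1333, 134 and 239 in controls, 628, 658, 455, 723 and 707 in knockout, and 3464, 2450, 973, 2859 and 2800 in D489V samples. All knockout samples lay below all D489V samples, with a change of -1.88 (SE 0.28, limma adjusted p 0.00307).

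The last genes apart from Ucp1 act in lipolysis and in making the glycerol backbone of triglyceride. Lipe (ENSMUSG00000003123, chromosome 7, 25379527 to 25398710, minus strand) encodes hormone-sensitive lipase. It overlaps 4732471J01Rik on the opposite strand, and whether the authors counted by strand is not given in the sources used here, so reads of the pair may be mixed. Lipe held 4399, 3517, 5321, 989 and 1127 in controls, 1917, 2083, 1291, 1717 and 1541 in knockout, and 6922, 5318, 1915, 6436 and 6319 in D489V samples. The groups overlapped through D489V 3 alone, which lay just below knockout 1 and 2. The change in knockout against D489V was -1.54 (SE 0.30, limma adjusted p 0.00746).

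Pck1 (ENSMUSG00000027513, chromosome 2, 173153048 to 173159273, plus strand) encodes the cytosolic phosphoenolpyruvate carboxykinase, which in fat feeds glycerol synthesis. It held 5034, 4095, 7189, 496 and 343 in controls, 2682, 3464, 1132, 1765 and 1503 in knockout, and 7445, 7557, 1135, 10761 and 9057 in D489V samples. Apart from D489V 3, which lay within the knockout range, the D489V samples were all above the knockout samples. The change was -1.56 with a standard error of 0.54 and did not pass the threshold (limma adjusted p 0.0564). Without D489V 3 it was -2.14 and passed, and it also passed without knockout 2, with adjusted p-values of 0.00112 to 0.172 over all settings tried.

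**Figure D2:**
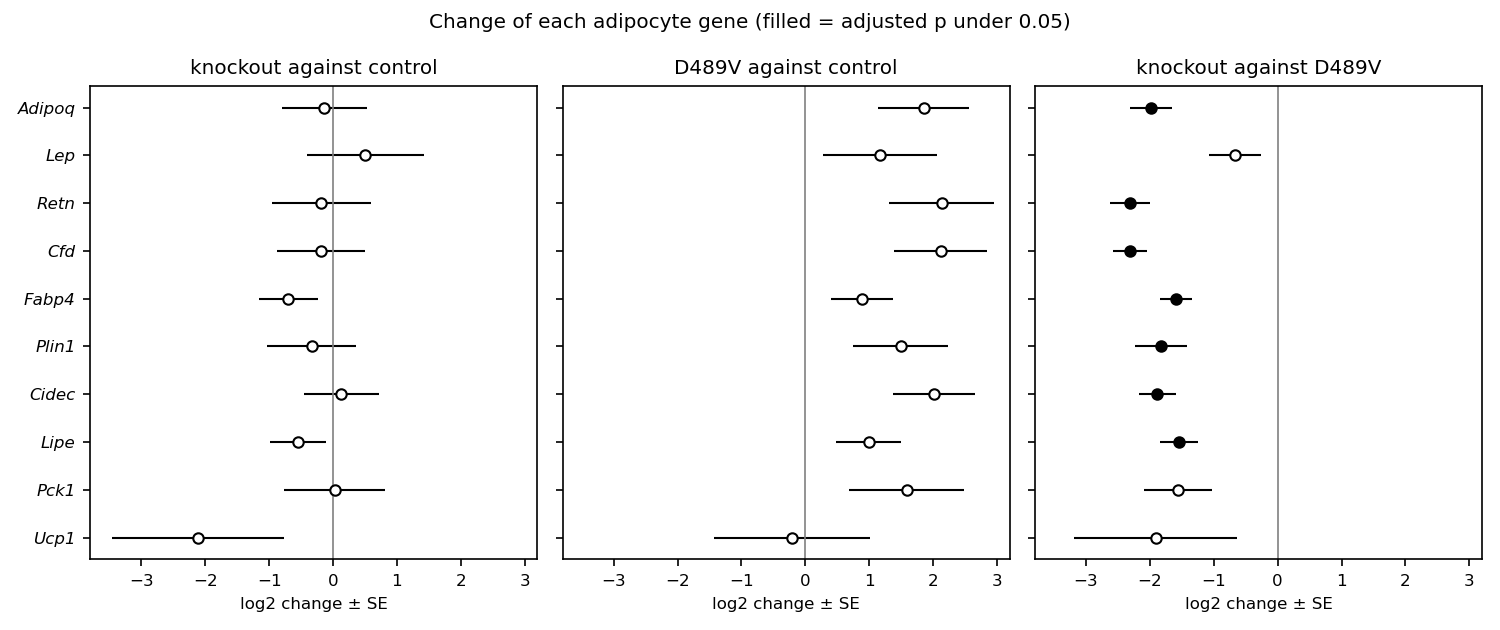
Log2 change of each of the 10 genes in the 3 comparisons, with bars of 1 standard error from limma and filled points for called genes. All 10 values lie below 0 in knockout against D489V, 7 of them called, and the standard error of Adipoq is 0.33 there, against 0.67 and 0.71 in the comparisons with control.

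In the direct comparison of knockout with D489V, the fat genes were lower in knockout muscle together. Of the 10 genes, 7 fell (Adipoq, Cfd, Retn, Fabp4, Cidec, Lipe and Plin1), against 10.3% of 15299 genes called lower and 20.8% called in either direction. Their groups did not overlap for 5 genes, against 6.7% of genes lower without overlap. The median log2 change over the 10 was -1.86, and over all genes it was 0.0004. An exact permutation test of 5 against 5 gives no p below 0.00794, which Adipoq, Cfd, Retn, Fabp4 and Cidec reached. These are the 5 genes without overlap. Groups that do not overlap always give that value, so it adds nothing to the count of 5. The count of 7 became 8 without D489V 3, without knockout 2, and without knockout 3 and D489V 3 together, the last a setting added after seeing the data.

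Against control, none of the 10 genes passed in either mutant group. In knockout against control, limma called 0 of the 10 genes, against 0.00656% of 15234 genes, and 0 had an unadjusted p under 0.05, against 15.1% of genes. By exact permutation test 0 were below 0.05 as well. The changes ran from -2.12 for Ucp1 to 0.51 for Lep, with a median of -0.19 and limma adjusted p-values of 0.438 to 0.989. In D489V against control, limma called 0 of the 10, against 0.0587% of 15339 genes. Adipoq (1.85), Cidec (2.01), Retn (2.13) and Cfd (2.12) had an unadjusted p under 0.05, as had, with a higher value in D489V, 5.37% of all genes tested, and 2 of the 10 were below 0.05 by exact permutation test. The median was 1.54, and 9 of the 10 values were above 0, the exception being Ucp1 at -0.21. Both comparisons use the same 5 controls, and the values for Adipoq were -0.13 in the first and 1.85 in the second.

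The spread among the controls was wide. For each of the 10 genes, the lowest of controls 1, 2 and 3 was above the higher of controls 4 and 5: 1824 against 351 for Adipoq, 8935 against 2060 for Cfd and 1567 against 146 for Ucp1. The highest control held 14.4 times the Adipoq of the lowest. Among knockout samples, the highest and lowest Adipoq values were 1118 and 535. With 2 of 5 controls low for the whole set, the standard errors against control were 0.67 and 0.71 for Adipoq, against 0.33 in the direct comparison.

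Ucp1 (ENSMUSG00000031710, chromosome 8, 83290352 to 83298452, plus strand) followed a different order. It held 1653, 1567, 2382, 146 and 56 in controls, 598, 991, 165, 19 and 16 in knockout, and 291, 1243, 41, 2299 and 719 in D489V samples. Each group had both high and low samples, and the change in knockout against D489V was -1.91 (SE 1.27, limma adjusted p 0.293). The Ucp1 count per Adipoq count ranged from 0.0168 in knockout 5 to 1.08 in control 3, a 64.2-fold range over the 15 samples. The same ratio for Cidec ranged 1.73-fold.

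The 6 samples with the lowest Ucp1, at 16 to 165, were controls 4 and 5, knockout 3, 4 and 5 and D489V 3. Cidea, a droplet protein abundant in brown fat, was at 70 to 207 in these 6 and at 461 to 2597 in the other 9. Not every brown fat gene followed Ucp1. Over the list of 15, Pearson correlations of log2 levels with Ucp1 ran from -0.60 for Zic1, with a mean of 20.9, to 0.96 for Cidea. Ebf2 (0.81) and Kcnk3 (0.85) were also high, while Prdm16 (0.09) and Ppargc1a (-0.50) were not. These values are not particular to Ucp1. With Adipoq, Kcnk3 had a higher correlation (0.89), and Cidea (0.74) and Ebf2 (0.72) lower ones. Those 6 samples with low Ucp1 were also the 6 with the highest Myh7, the slow myosin heavy chain, at 37808 to 94986 against 1581 to 28841. Hoxd9, a gene that marks position along the body and limb, was at 577 to 707 in the same 6 and at 153 to 294 in the other 9. The 6 were noticed after the values were seen. With the log2 level of Hoxd9 as a covariate, Ucp1 had -0.55 (SE 0.65) in knockout against D489V and -0.64 (SE 0.57) in knockout against control. With Myh7 in its place it had -2.36 (SE 0.88) and -2.23 (SE 0.89). None of these was called, both covariates were chosen after seeing the data, and the cause of the Ucp1 differences was not tested.

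The Adipoq values of the same samples are given by group. Among the 9 samples with low Hoxd9, Adipoq was 1824 to 2580 in controls 1 to 3, 950 and 1118 in knockout 1 and 2, and 3414 to 5106 in the 4 D489V samples. Among the 6 with high Hoxd9 it was 179 and 351 in controls, 535 to 955 in knockout and 1294 in the single D489V sample. In the first set the knockout values were the lowest and the D489V values the highest, and in the second the control values were the lowest. With the log2 level of Hoxd9 as a covariate, a setting chosen after seeing the data, limma called 6 of the 10 genes higher in D489V than in control: Cidec (2.14), Pck1 (1.78), Plin1 (1.65), Adipoq (2.00), Lipe (1.10) and Cfd (2.26). Their adjusted p-values were 0.00894 to 0.0319 in that fit and up to 0.895 over all settings. In that fit 165 genes were called in all, and 0.763% of those tested were called higher. With Myh7 in its place, also chosen after seeing the data, 2 of the 10 were called, Cidec (2.28) and Cfd (2.43), against 0.28% of genes called higher and 74 called in all. In knockout against D489V, 8 of the 10 were called with either covariate, and in knockout against control 0 were.

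**Figure D3:**
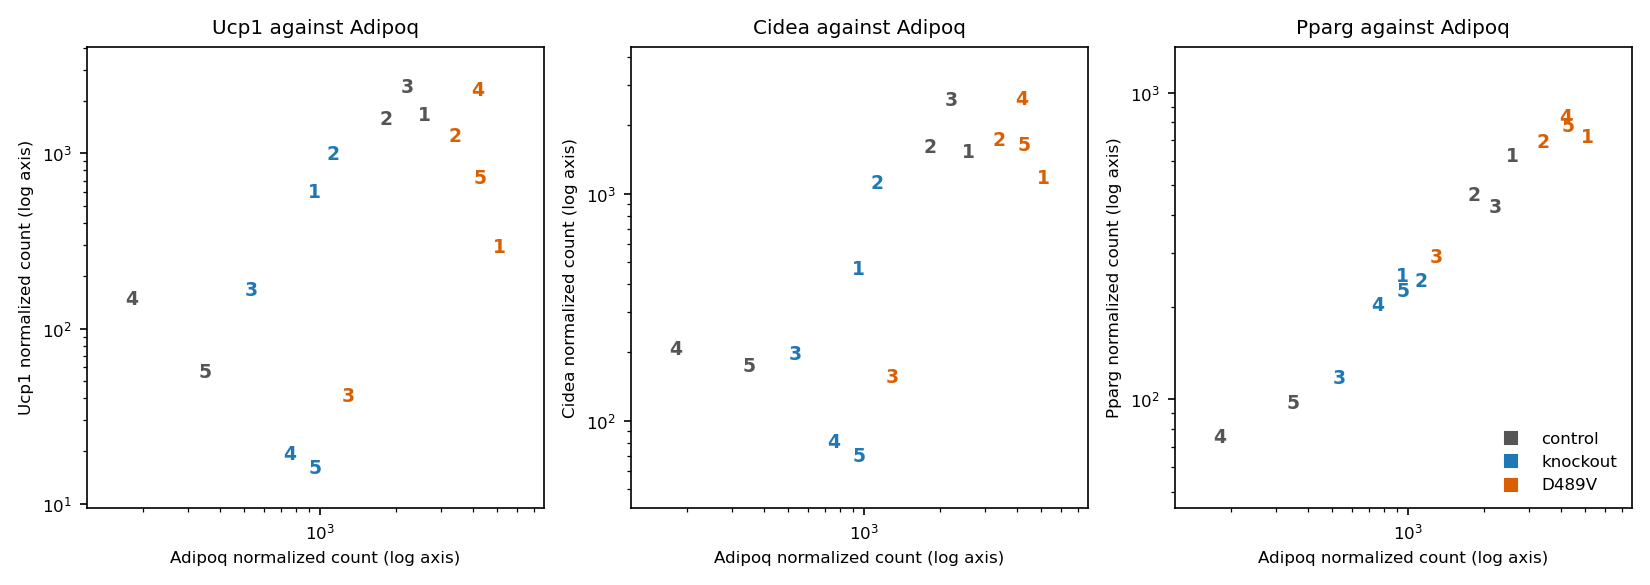
Ucp1, Cidea and Pparg against Adipoq in the 15 samples, as normalized counts on log axes, with replicate numbers coloured by group. Pparg lies along a line with Adipoq, while Ucp1 and Cidea scatter, with low values in samples of each group.

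Levels can be compared between the genes only per length. The length used is the union of all annotated exons of a gene, which can exceed that of its main transcript. For Fabp4 it is 4489 bases, the whole span of the gene with its introns. Its level per length may therefore be understated, and its place in the order is not settled. By this length Cfd had the highest mean in every group, at 10136 in controls, 5354 in knockout and 28449 in D489V samples. Fabp4 came next at 3895, 1940 and 5992. Lep had the lowest mean in every group, at 31.7, 30 and 43.7. In D489V samples the order of means below Fabp4 was Adipoq (2648), Pck1 (2097), Cidec (1352), Retn (1034), Lipe (914), Plin1 (877) and Ucp1 (561). Of the 9 pairs of neighbours in that order the sample values overlapped in 8. The exception was Cfd over Fabp4, which rests on the Fabp4 length given above.

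The 8 adipocyte genes other than Lep and Ucp1 varied together from sample to sample. Over 15 samples, Pearson correlations of log2 values between these 8 genes were 0.843 to 0.989 (28 pairs, median 0.937). With the group means removed they were 0.794 to 0.989, so they varied together within groups as well. Pairs with Ucp1 had 0.378 to 0.732 and pairs with Lep 0.378 to 0.751. With the group means removed, pairs with Ucp1 had 0.439 to 0.818 and pairs with Lep 0.439 to 0.787. The highest of these pairs with Ucp1, Pck1 (0.818) and Plin1 (0.803), lay within the range of the 8 genes. These values are descriptions, since the samples share the same libraries and scaling. Lipe per Adipoq count was 1.36 to 1.56 in D489V samples and 1.61 to 2.41 in knockout samples, the only 1 of 9 such ratios without overlap between these groups. It was singled out after the 9 were seen, and the difference between both genes was not tested.

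Of 12149 genes with a mean of 50 or more, those whose log2 level over the 15 samples was most like that of Adipoq were Pparg (Pearson r 0.986), Ces1f (0.985), Lgals12 (0.983), Acvr1c (0.981) and Smoc1 (0.980). With group means removed the order was Rbm47 (0.982), Cebpa (0.981), Pparg (0.980), Lgals12 (0.978) and Smoc1 (0.977). Pparg held 617, 463, 422, 75 and 97 in controls, 251, 243, 117, 202 and 224 in knockout, and 715, 688, 291, 828 and 773 in D489V samples. As for Adipoq, controls 4 and 5 and D489V 3 were low in their groups.

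Other lists of fat cell genes were chosen, like the genes above, with earlier results known. Their counts in knockout against D489V are read against the 10.3% of all genes tested that were called lower and the 20.8% called in either direction. Of 10 adipogenic regulators, 6 fell and 0 rose, among them Pparg (-1.62, limma adjusted p 0.0051), Cebpa (-1.72, 0.0074), Cebpd (-0.98, 0.0059) and Ebf1 (-0.57, 0.0092). Cebpb, an early adipogenic factor that many cells express, had a change of -0.20 (adjusted p 0.518). Of 15 lipid synthesis genes, 9 fell and 1 rose, and the median change was -1.54. Fasn, the fatty acid synthase, had -2.67 (limma adjusted p 0.0059), Elovl6, which lengthens fatty acids, -2.72 (0.0032), Acly, which makes cytosolic acetyl-CoA, -2.30 (0.0066) and Dgat1, the last step of triglyceride synthesis, -1.33 (0.0031). Acaca, which makes malonyl-CoA, fell by 1.74 (0.0167). The gene that rose, Lpin1, is also active in muscle (0.79, limma adjusted p 0.034).

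Of 13 genes of the lipid droplet and lipolysis, 8 fell and 0 rose, with a median of -0.92. Adrb3, the adrenergic receptor that drives lipolysis in fat, had the steepest fall of the 4 named (-2.73, limma adjusted p 0.0035), followed by Aqp7, a glycerol channel (-1.18), G0s2, a lipase inhibitor (-1.14), and Mgll, the monoglyceride lipase (-0.92). Pnpla2, the first lipase of triglyceride breakdown, fell by 0.77 (limma adjusted p 0.0161), and Abhd5, its activator, had 0.04 (0.827). Of 15 other fat-secreted and fat-enriched genes, 8 fell and 1, Nampt, rose (0.61, 0.0187). Apoe (-1.28), Acvr1c (-2.04), Adig (-2.16), Slc7a10 (-1.64) and Angptl4 (-1.62) fell, and Nnat had -0.19 (0.748).

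**Figure D4:**
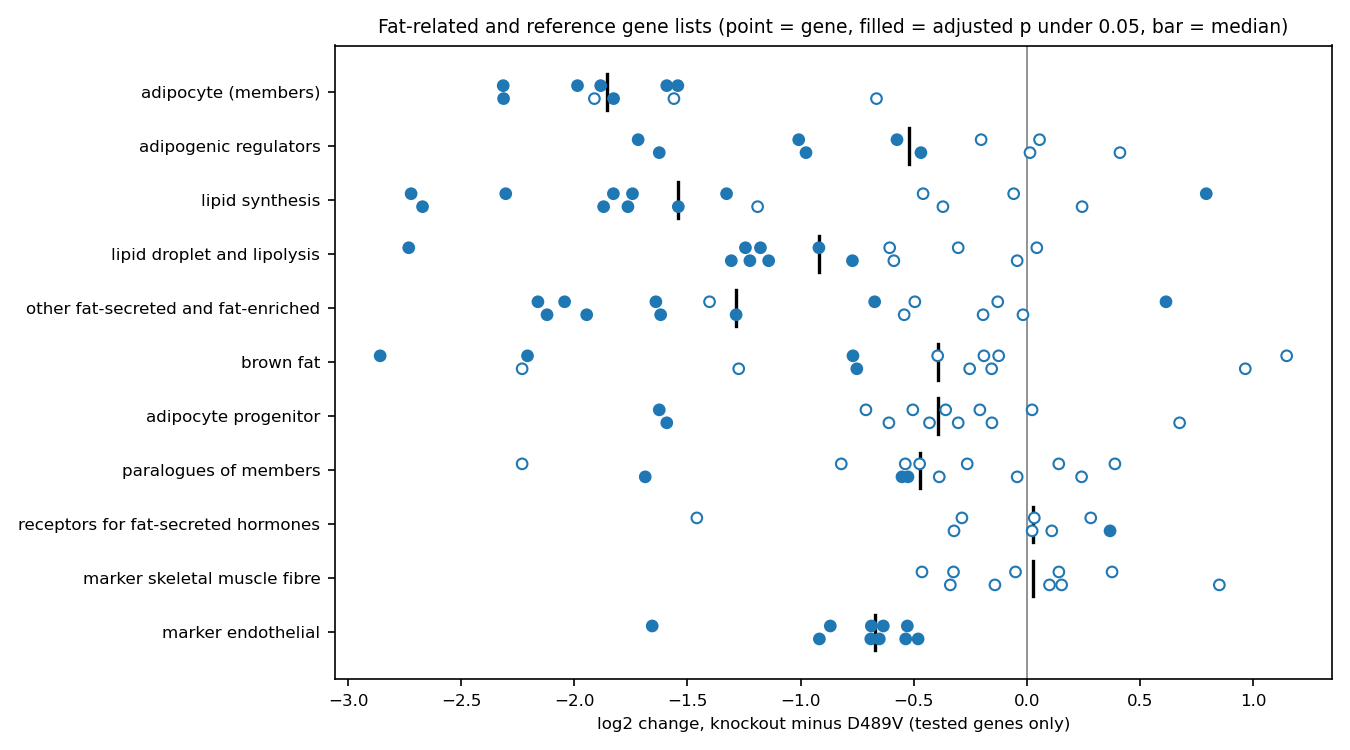
Log2 change in knockout against D489V for the tested genes of each fat list and of muscle fibre and endothelial markers, with filled points for called genes and bars for medians. Called genes of the fat lists lie mostly below 0, and the exceptions above 0 are Lpin1, Nampt and Adipor1.

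Of 13 brown fat genes tested, 4 fell and 0 rose, where 10.3% of all genes were called lower: Cpt1b (-0.77, limma adjusted p 0.0016), Kcnk3 (-2.21, 0.0116), Ebf2 (-0.75, 0.0243) and Slc27a2 (-2.86, 0.0445). Cpt1b is also the carnitine palmitoyltransferase of muscle fibres, and Ebf2 and Slc27a2 passed in some settings only. Slc27a2 did not pass without knockout 1, 3, 4 or 5, nor Ebf2 without knockout 5 or D489V 2. Cidea had -2.23 (0.0752), Dio2 -0.16 (0.626) and Prdm16 -0.39 (0.0656), none of which passed. The number of brown fat genes called was 2 to 8 over the settings tried. Of 13 tested paralogues of the 10 genes 3 fell, where 10.3% of all genes were called lower and 20.8% in either direction: Fabp5, a carrier found in many cell types (-1.69, limma adjusted p 0.002), C1qtnf9, a relative of adiponectin (-0.53), and Pck2, the mitochondrial counterpart of Pck1 (-0.55). Fabp3, the fatty acid carrier of muscle, had 0.39 (0.0917), and Plin2, a droplet coat found in most cells, had -0.47 (0.0827). Retnlb was listed at 0 in all 15 samples.

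Among 12 adipocyte progenitor genes 2 fell, Fabp4 and Pparg, both counted above. Pdgfra, a marker of the fibro-adipogenic cells of muscle, had -0.43 (limma adjusted p 0.0628). Ly6a had -0.36 (0.0753), Dpp4 0.02 (0.949) and Cd55 0.675 (0.0505), and none of these 4 passed. Of the 12 values 10 were below 0 and 2, those of Dpp4 and Cd55, above, with a median of -0.39. Of 8 receptors for fat hormones, Adipor1, a receptor for adiponectin, rose (0.37, 0.0296) and the other 7 did not pass. Both counts are read against the same 10.3% and 20.8% of all genes. In both comparisons with control, limma called 0 genes of each of these lists. In D489V against control with Hoxd9 as a covariate, chosen after seeing the data, it called 4 of 10 adipogenic regulators. It also called 3 of 15 lipid synthesis, 2 of 13 droplet and lipolysis, 3 of 15 other fat-enriched and 1 of 13 brown fat genes. That fit called 165 of 15338 genes in either direction, and 0.763% higher. At an unadjusted p under 0.05 the lists held 2 to 6 genes each in knockout against control, where 15.1% of all genes did, and 1 to 8 each in D489V against control, where 9.43% did, in either direction.

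Markers of other cells were read in the same comparison, again against 10.3% of all genes called lower. Of 10 endothelial markers, all 10 fell in knockout against D489V, with a median of -0.67 and Cldn5 at -1.66, and their summed level was 10816 to 16857 in knockout and 20506 to 24554 in D489V. Of 9 Schwann cell and nerve markers 8 fell, with a median of -1.08, and of 6 erythrocyte markers 5 fell, with a median of -1.62. Of 10 mural cell markers, which mark pericytes and vascular smooth muscle, 4 fell and 1 rose, with a median of -0.32. Of 10 muscle fibre markers limma called 0, with 1 at an unadjusted p under 0.05, and their summed level was 6284407 to 8912859 in knockout and 6669265 to 7767539 in D489V. Of 9 macrophage, 8 tendon and 7 lymphocyte markers and the 1 skin marker tested it called 0, with 0 at an unadjusted p under 0.05. The part of these cells in the fat gene differences was not tested.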

How the data were processed

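RNA was enriched for poly(A) and made into directional libraries, per the labels' protocols. The submitters' processing notes name Trim Galore 0.6.0, cutadapt, FastQC, STAR 2.7.0e, DESeq2 1.26.0 and GRCm38. The deposited values are a score: per the table names, they are gene counts normalized by the authors, and every value is a whole number. How reads were assigned and scaled is not given in the sources used here, and the read depth of each sample is unknown, so no test on read counts was run. The 2 tables, of controls with each mutant group, were joined by gene identifier. Their 5 control columns were identical, and sample medians relative to a geometric mean reference were 1.0069 to 1.0097, so knockout and D489V were compared directly. Names, coordinates and exon lengths came from GENCODE M21.

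Comparisons of 5 against 5 samples used limma 3.58.1 in R 4.3.3 (two-sided, with a variance trend in eBayes) on the log2 of value + 1, which understates changes of low genes, for genes at 10 or more in at least 5 of 10 samples. All 10 genes passed this filter in each comparison. P-values were adjusted by Benjamini-Hochberg over all genes tested, and genes were called under 0.05. The fit was tested on simulated data. The members and lists were chosen with earlier results of these data known. Beyond the 10 genes and their paralogues, the text names up to 4 called genes of a list, its first 3 with a mean of at least 50, and 5 genes most like Adipoq. Adipor1, Lpin1, Nampt, Pdgfra, Cd55, Cldn5, Zic1, Ppargc1a, Xist, Hoxd9 and Myh7 were named after their values were seen. Alternatives changed the pseudocount to 5, the filter, the scaling, the variance model, the samples sharing the fit and the replicate block, and left out each replicate.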

Additional observations from a re-analysis of the deposited data

Results flagged for a closer look

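In 3 of the 30 combinations of gene and group, 1 sample lay farther from the rest than Dixon's 95% critical value for 5 samples. Chance gives about 1.5 such cases in 30. The 3 genes concerned, Pck1, Lipe and Cidec, varied together over the 15 samples (Pearson r 0.913 to 0.944). The 3 cases are therefore not separate, and 3 against 1.5 cannot be read as an excess. All 3 were D489V 3 as the lowest of its group. Its Pck1 was 1135, and the other 4 held 7445 to 10761, a gap of 0.836 of the range of log2 values. Its Lipe was 1915 against 5318 to 6922, a gap of 0.795. Its Cidec was 973 against 2450 to 3464, a gap of 0.727. The same library held 3629 normalized counts of 8 skin markers and 50937 of 10 Schwann cell and nerve markers. The part of these in its low fat gene values was not tested.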

How the results depend on the processing

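The count of adipocyte genes called in knockout against D489V was 6 to 8 over all settings, and 7 or 8 with 1 replicate left out. In knockout against control it was 0 in every setting tried. In D489V against control it was 0 except with Hoxd9 (6 genes) or Myh7 (2 genes) as a covariate, both chosen after seeing the data, and the cause was not tested. Over all genes, knockout against control gave 16 with all samples in 1 fit, 23 with Myh7 and 1 to 7 with 1 replicate left out. D489V against control gave 19 with a pseudocount of 5, 18 with upper-quartile rescaling, 21 with robust eBayes, 1 with all samples in 1 fit, 165 with Hoxd9, 74 with Myh7 and 2 to 26 with 1 replicate left out. Knockout against D489V gave 1398 to 3686 with 1 replicate left out and 1589 without knockout 3 and D489V 3.

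None of the values that changed sign was called. In knockout against control with 1 replicate left out, Adipoq ran from -0.72 to 0.24, Plin1 from -0.89 to 0.09, Lep from -0.48 to 0.93, Cidec from -0.39 to 0.46, Retn from -0.84 to 0.43, Cfd from -0.79 to 0.31 and Pck1 from -0.59 to 0.51. With Hoxd9, Adipoq was 0.49, Plin1 0.40, Retn 0.44 and Cfd 0.35, and with Myh7 Pck1 was -0.03. Ucp1 in D489V against control ran from -1.03 to 0.67, and was 0.04 with Hoxd9 and 0.35 with Myh7. Same-numbered samples correlated at -0.40 to 0.39, which cannot settle whether the numbers mark a shared litter or batch. With the replicate block, 0, 0 and 8 of the 10 genes were called, and 1, 7 and 2208 of all genes. Of 5 samples, 2, 2 and 1 correlated best with their own number.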
